A study of Mus musculus with 2 samples.

Results

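Cxcl12, Cxcr4 and Ackr3 encode a chemokine ligand and its receptors, and are 3 of the 32285 genes counted in single cells of the embryonic mouse dorsal telencephalon. They were chosen by symbol, without use of their values. The samples were 2 libraries, replicates 2 and 4, made with the 10x Genomics 3′ kit from dorsal telencephalon taken on embryonic day 14.5 (E14.5), near the middle of cortical neurogenesis. Both are labelled WT and EomesDot and are described as controls of an Eomes-Cre line. The methods of the study name C57BL/6J mice, and how that strain relates to the EomesDot label is not given. No other genotype or treatment was analysed here, so every comparison is between cell classes of the same 2 libraries. The labels do not say that each library is a separate embryo, so p-values measure only the spread between these libraries, which may be technical.

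CXCL12 is a secreted chemokine held on extracellular heparan sulfate, and in the embryonic forebrain it is best known from the meninges that cover the cortex. CXCR4 is its G protein-coupled receptor, through which Cajal-Retzius cells and tangentially migrating interneurons respond to it. ACKR3, an atypical receptor formerly called CXCR7, binds the same ligand, recruits arrestins and takes CXCL12 up from the surroundings of the cell, and migrating interneurons are known to carry both receptors.

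In RefSeq on GRCm38.p6, a patch release of the mm10 build named in the submitters' processing notes, Cxcl12 lies on the forward strand of chromosome 6 at chr6:117168535-117181368. Ackr3 lies on the forward strand of chromosome 1 at chr1:90203980-90215724, and Cxcr4 on the reverse strand of the same chromosome at chr1:128588199-128592299. No other RefSeq gene overlaps any of the 3. Since the genes differed between cell classes in different ways, the 100 bases before each annotated start are shown 5′ to 3′ on the gene's own strand, with any TATAAA match in capitals. They cover chr6:117168435-117168534 for Cxcl12, chr1:128592300-128592399 for Cxcr4 and chr1:90203880-90203979 for Ackr3.
Cxcl12: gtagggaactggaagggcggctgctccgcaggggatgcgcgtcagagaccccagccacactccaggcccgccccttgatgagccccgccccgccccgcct
Cxcr4: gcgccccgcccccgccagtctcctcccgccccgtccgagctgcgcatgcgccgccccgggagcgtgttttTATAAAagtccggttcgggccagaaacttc
Ackr3: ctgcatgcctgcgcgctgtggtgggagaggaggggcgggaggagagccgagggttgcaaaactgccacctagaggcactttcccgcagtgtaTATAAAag

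Over the 250 bases before each start, the letters TATAAA, read on the gene's strand, began 30 bases before the start of Cxcr4 and 8 bases before that of Ackr3 and were not found for Cxcl12. The same letters stood in 7.59% of 32851 RefSeq promoters of the same length. TAATTA, the core of many homeodomain sites, was in none of the 3 windows on either strand and in 4.84% of all promoters. GC content was 64.4% for Cxcl12, 61.2% for Cxcr4 and 54% for Ackr3, against a median of 52.4% over all promoters. These matches describe the letters only.

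The tables held 1712 and 2589 barcodes, with 40267872 and 49422007 UMIs (unique molecular identifiers, each counting 1 captured mRNA molecule), and 3 barcode sequences occurred in both libraries. Of these, 1202 and 1932 cells were retained, with medians of 30785.5 and 22836 UMIs per cell. Clustering without the 3 genes, and naming from marker lists, gave cell classes whose sizes are given for replicates 2 and 4 in turn. There were 255 and 405 cells like radial glia (RGC), 220 and 348 like intermediate progenitors (IPC), 486 and 742 excitatory neuron-like, 16 and 24 Cajal-Retzius-like and 19 and 33 meningeal fibroblast-like cells. A further cluster of 9 and 18 cells, led by Cldn5, had all 9 endothelial markers raised, but 4 haemoglobin genes of the erythroid list and 2 endothelial markers were among its 10 leading genes. It is given no cell type name and is called the Cldn5-led cluster. Among GABAergic cells, 54 and 81 were like interneurons of the medial ganglionic eminence (MGE), 5 and 28 like those of the caudal one (CGE), 1 and 62 like striatal projection neurons, and 24 and 77 had no sub-class. The compared classes held UMIs of between 6 of 7 (CGE interneuron) and 13 of 13 (excitatory neuron) markers of their own lists. No class was named mural or microglial, although such cells were present: 13 and 12 IPC-like cells held more UMIs of the mural list, and 6 and 10 more of the microglia or macrophage list, than of the IPC list. By the same count the mural list led in 4 and 1 hem or choroid plexus-like and in 2 and 0 meningeal fibroblast-like cells.

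Levels are given as CPM, the summed UMIs of a gene in a class of cells, scaled to a sum of 1000000 UMIs of the same cells in the same library, and a mean ± SD is over the 2 libraries. Differences come from edgeR's quasi-likelihood test on those sums over 10 classes and 13360 genes, all 3 genes having passed the filter on low counts, with a gene called at a Benjamini-Hochberg adjusted p under 0.05. Many genes differ between cell classes, so each count of the 3 genes is set against the share of all genes called. Comparisons share classes and are not independent of each other. In the 11 comparisons, 20 of 33 tests of the 3 genes were called, with between 1.78% and 39.9% of all genes called in a comparison. The comparisons were chosen with earlier results of these data known.

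Against RGC-like cells, 2 of the 3 genes were called in meningeal fibroblast-like cells (39.6% of all genes), 2 in the Cldn5-led cluster (36% of all genes) and 1 in IPC-like cells (27.6%). Meningeal fibroblast-like cells differed from IPC-like cells in 2 genes (39.9%) and from the Cldn5-led cluster in 2 (20.4%). IPC-like and excitatory neuron-like cells differed in 2 (32.2%). MGE interneuron-like cells differed in all 3 genes from excitatory neuron-like cells (15.7%) and from IPC-like cells (36.6%), and in 1 from CGE interneuron-like cells (1.78%). Cajal-Retzius-like cells differed in 1 gene from excitatory neuron-like cells (13.3%) and in 1 from MGE interneuron-like cells (18.4%).

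**Figure D1:**
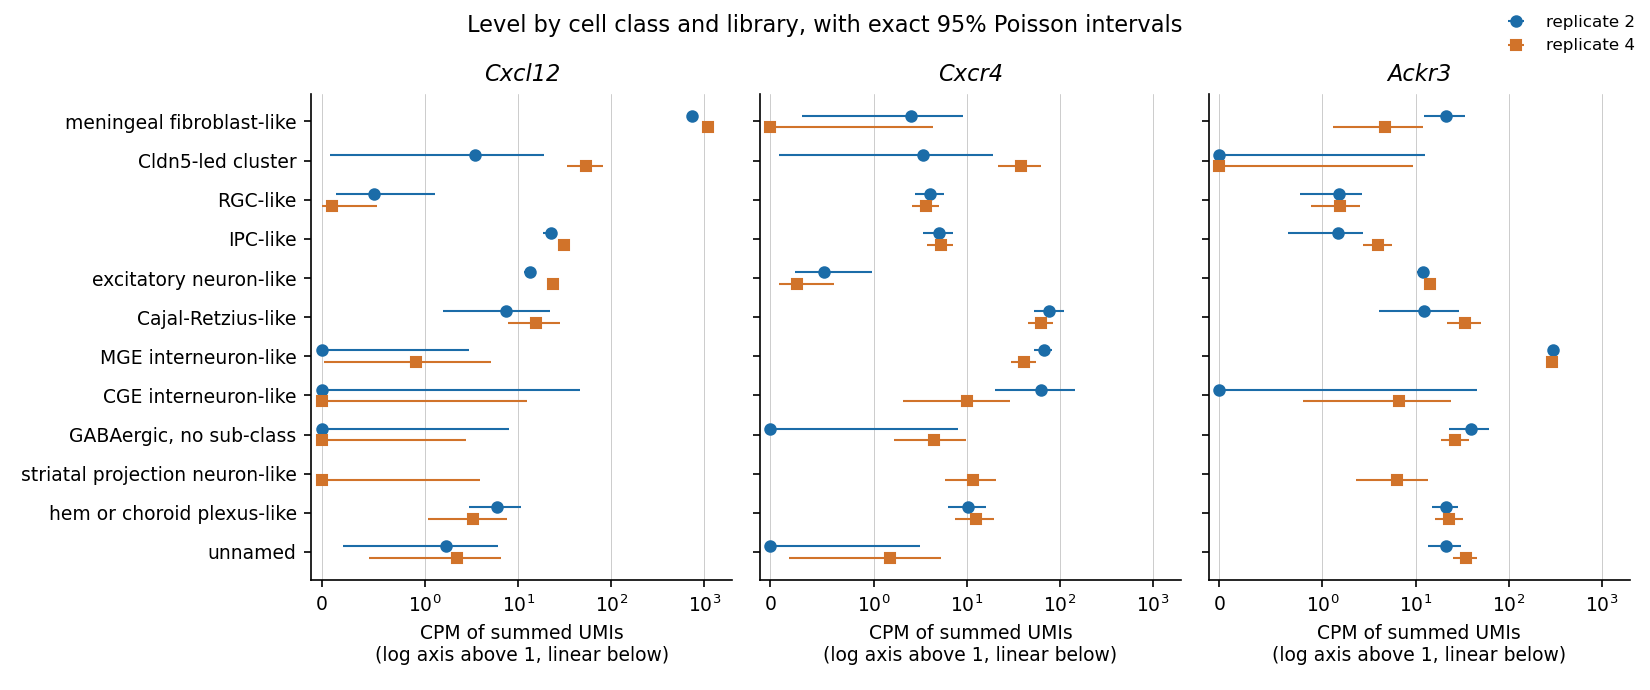
Level of each gene (CPM, log axis above 1 and linear below) in each cell class, with 1 point per library and exact 95% Poisson intervals of the counts; class and library pairs with under 5 cells are left out. Cxcl12 stands at 731 and 1095 in meningeal fibroblast-like cells, Ackr3 at 299 and 295 in MGE interneuron-like cells, and Cxcr4 between 40.9 and 77.3 in Cajal-Retzius-like and MGE interneuron-like cells.

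Cxcl12, the ligand, was highest in meningeal fibroblast-like cells, the collagen-producing cells of the meninges. Its level there was 731 CPM in replicate 2 (582 UMIs; interval 673 to 793) and 1095 CPM in replicate 4 (921 UMIs; interval 1026 to 1169), 913 ± 257 (SD, n = 2). These intervals cover counting error only, since cells of a library are not independent samples. Neither library's value overlapped that of any other class. The 52 meningeal fibroblast-like cells of 3134 retained cells held 57.1% of all Cxcl12 UMIs. Single cells ranged from 0 UMIs to 110 in replicate 2, with a median of 10, and from 0 to 73 in replicate 4, with a median of 25. All 11 markers of the meningeal list were detected in both libraries, with summed levels of 6356 and 8912 CPM. The mural list, with 9 of 10 markers detected, summed to 1191 and 1748 CPM in the class, and the 2 cells richer in mural than in meningeal markers held no Cxcl12 UMI.

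The meningeal class fell into 3 sub-clusters, all of which held the ligand. The sub-cluster led by Col3a1, Col1a2 and Dcn, which encode matrix proteins, had Cxcl12 levels of 1005 and 1360 CPM. One led by Col3a1, Dcn and Lgals1 had 775 and 1092 CPM, and one led by Dcn, Col3a1 and Col1a2 with Igf2 had 523 and 821 CPM. Only the highest and the lowest of the 3 did not overlap, and each held 6 or 7 cells in replicate 2, so no test was made. In that library 1 cell of each sub-cluster held 48.7%, 47.5% and 45.3% of its Cxcl12 UMIs in turn, and 3 of the 6 cells of the highest sub-cluster had any.

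At a common depth of 5000 UMIs per cell, Cxcl12 was detected in 12 of 19 meningeal fibroblast-like cells of replicate 2 (63.2%; exact binomial interval 38.4 to 83.7) and in 27 of 31 of replicate 4 (87.1%; interval 70.2 to 96.4), with 0 and 2 shallower cells left out. Without thinning the shares were 78.9% and 97%. RGC-like cells, taken as a class with little of the gene, had a Cxcl12 UMI in 1 of 239 cells (0.418%) and in 0 of 371 cells, which allows up to 0.809% of cells with a UMI at that depth (3 counts of 371). Median depths were 39628 and 27254 UMIs in meningeal fibroblast-like cells and 30760 and 25458 in RGC-like cells.

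Cxcl12 was higher in meningeal fibroblast-like than in RGC-like cells by 11.53 on the log2 scale (SE 0.70, edgeR adjusted p = 3.73e-08). It exceeded the level in IPC-like cells by 5.04 (SE 0.46, adjusted p = 1.45e-06) and that in the Cldn5-led cluster by 4.79 (SE 0.56, adjusted p = 3.63e-05). In RGC-like cells there were 4 and 1 UMIs in all, 0.504 and 0.0970 CPM, so the size of the first difference rests on few counts: the ratio of summed counts was 3352, with a counting interval of 1433 to 10339. Within 1 library at a time the difference from RGC-like cells was 9.45 in replicate 2 and 10.76 in replicate 4, computed on log2 CPM with a prior count of 2, which draws low levels together. Without the cells richer in mural or microglial markers the 3 differences were 11.64, 5.06 and 4.88.

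Cxcl12 was also present in the excitatory lineage, at lower levels. IPC-like cells, named for the progenitors that arise from RGCs, had 22.3 CPM in replicate 2 (138 UMIs) and 31.5 CPM in replicate 4 (252 UMIs), 26.9 ± 6.48. Excitatory neuron-like cells had 13.3 CPM (230 UMIs) and 23.5 CPM (448 UMIs), 18.4 ± 7.27. Both classes lay above RGC-like cells in both libraries, and their own ranges overlapped. Of all Cxcl12 UMIs, IPC-like cells held 14.8% and excitatory neuron-like cells 25.7%.

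The difference between IPC-like and RGC-like cells was 6.50 (SE 0.71, adjusted p = 1.46e-05), a ratio of summed counts of 100.2 with a counting interval of 42.6 to 310.4. IPC-like and excitatory neuron-like cells differed by 0.36 (SE 0.41, adjusted p = 0.55), with a 95% interval of -0.43 to 1.16. At 5000 UMIs per cell, 7.32% and 12.7% of IPC-like cells and 7.69% and 11.8% of excitatory neuron-like cells had a Cxcl12 UMI. Meningeal markers summed to 26.3 and 30.3 CPM in IPC-like cells, against 14.7 and 12.2 CPM in RGC-like cells. Without the cells richer in mural or microglial markers, which held 0 and 1 Cxcl12 UMIs, the difference was 6.58 (adjusted p = 7.13e-06), an alternative chosen after seeing the data.

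Within the lineage, the 3 clusters with the highest Cxcl12 levels each had markers of both the IPC and the excitatory neuron list raised. The excitatory neuron-like cluster led by Sema3c, Unc5d and Slc17a6, in which 5 of 8 IPC markers were also raised, had 84.8 and 138 CPM. An IPC-like cluster led by Kif26b, Eomes and Slc17a6 had 61.4 and 84.0 CPM, and an excitatory neuron-like cluster led by Unc5d, Slc17a6 and Adamtsl3 had 35.6 and 52.3 CPM. Eomes encodes the transcription factor that marks IPCs and Slc17a6 a vesicular glutamate transporter of new excitatory neurons. The 3 clusters did not overlap in their ranges.

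Lower levels were found on either side. The dividing IPC-like cluster led by Top2a, Apoe and Mki67, with no IPC marker among its 10 leading genes, had 27.4 and 32.7 CPM. It held 122 of the 390 Cxcl12 UMIs of the IPC-like class. The IPC-like cluster led by Eomes and Neurog2 had 10.8 and 8.13 CPM. Among excitatory neuron-like clusters with deep-layer markers, the one led by Lrfn5, Cdh13 and Rspo3 had 2.22 and 1.52 CPM, and the 3 RGC-like clusters were at or below 0.570 CPM in either library. In the 3 highest clusters of the lineage the meningeal markers summed to between 0 and 3.16 CPM. In the dividing cluster they summed to 110 and 90.3 CPM; their part in its Cxcl12 level was not tested.

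**Figure D2:**
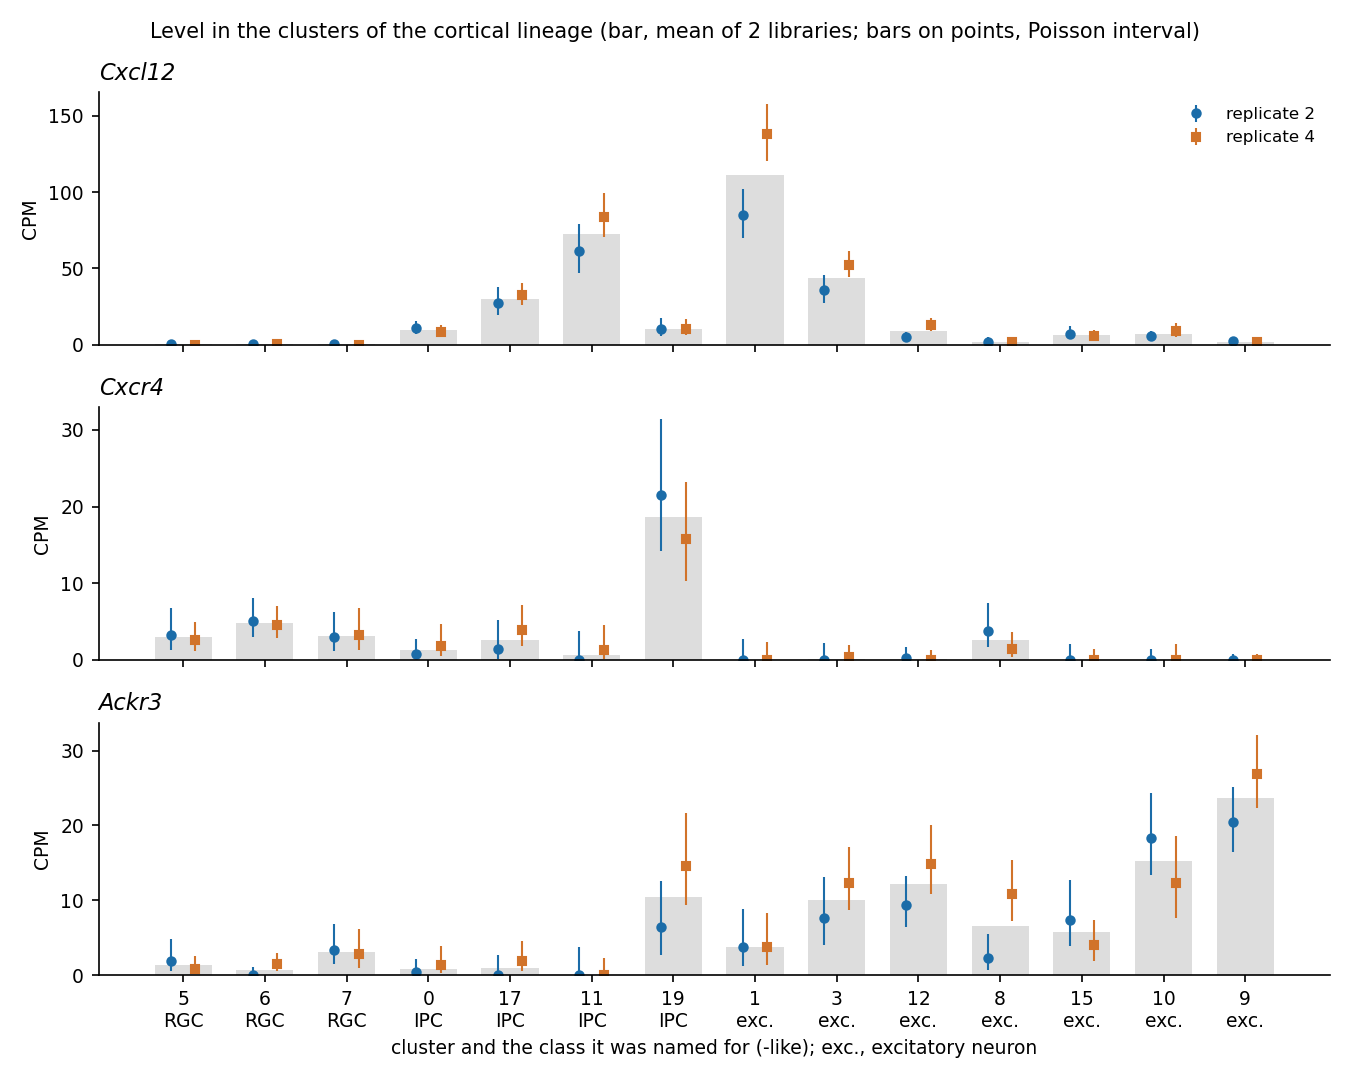
Level of each gene (CPM, axis from 0) in the 14 clusters named RGC-like, IPC-like or excitatory neuron-like, with grey bars for the mean of 2 libraries, points for each library and 95% Poisson intervals; clusters are ordered by class and not by a measured time. Cxcl12 peaks in clusters 1, 11 and 3, Cxcr4 stands apart in cluster 19, and Ackr3 is highest in cluster 9, at 20.5 and 26.9 CPM.

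The Cldn5-led cluster, in which markers of endothelial cells, the lining of blood vessels, were raised beside haemoglobin genes of red blood cells, gave unlike values in the libraries. Cxcl12 was at 3.40 CPM in replicate 2 (1 UMI in 9 cells) and at 53.7 CPM in replicate 4 (21 UMIs in 18 cells, 16 of them in 1 cell). The difference from RGC-like cells was 6.74 (SE 1.04, adjusted p = 1.60e-04), but in replicate 2 alone, from 1 UMI against 4, the ratio was 6.76 with a counting interval of 0.137 to 68.3, and in replicate 4 alone, from 21 UMIs against 1, it was 554 with an interval of 89.1 to 22899. The ratio of meningeal fibroblast-like cells to the cluster was 215 (interval 38.4 to 8501) in replicate 2 alone and 20.4 (interval 13.3 to 33.1) in replicate 4 alone. The erythroid list summed to 91.9 CPM in this cluster in replicate 2 and to 45563 CPM in replicate 4, and its part in the result was not tested.

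Cajal-Retzius-like cells had 7.48 CPM of Cxcl12 (3 UMIs) and 15.6 CPM (11 UMIs), and differed from excitatory neuron-like cells by -0.81 (SE 0.71, adjusted p = 0.542; 95% interval -2.19 to 0.58). Hem or choroid plexus-like cells had 5.97 and 3.29 CPM. GABAergic cells had few UMIs of the gene, with 0 and 1 UMIs in MGE interneuron-like cells and 0 in the CGE interneuron-like cells, the striatal projection neuron-like cells and the cells without sub-class. For MGE interneuron-like cells a count of 3 would be 2.41 and 2.73 CPM. In the cells without sub-class the mean became 22.1 CPM when barcodes with at least 500 detected genes were kept, and 1.27 CPM with at most 5% mitochondrial UMIs.

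MGE interneuron-like cells stood below excitatory neuron-like cells (adjusted p = 0.00616) and below IPC-like cells (adjusted p = 0.00131). From 1 UMI the sizes are imprecise: the ratio of summed counts was 43.7 in favour of excitatory neuron-like cells, with a counting interval of 7.82 to 1728, and 64.4 in favour of IPC-like cells, with an interval of 11.5 to 2550. Against Cajal-Retzius-like cells the ratio was 29.6 (counting interval 4.51 to 1254) in favour of Cajal-Retzius-like cells and was not called (adjusted p = 0.0652). With the library as a block that comparison gave an adjusted p of 0.0347, and over all other alternatives its adjusted p ran from 1.95e-05 to 0.192.

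Cxcr4, the signalling receptor, was highest in Cajal-Retzius-like cells, the Reelin-secreting early neurons under the pia, and in MGE interneuron-like cells. Cajal-Retzius-like cells had 77.3 CPM in replicate 2 (31 UMIs; interval 52.5 to 109.7) and 62.3 CPM in replicate 4 (44 UMIs; interval 45.3 to 83.7), 69.8 ± 10.6. MGE interneuron-like cells had 66.6 CPM (83 UMIs) and 40.9 CPM (45 UMIs), 53.8 ± 18.2. The ranges of these classes overlapped. They held 16.9% and 28.9% of all Cxcr4 UMIs.

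In excitatory neuron-like cells Cxcr4 was nearly undetected, with 9 UMIs in 486 cells and 5 in 742, 0.519 and 0.263 CPM. Cajal-Retzius-like cells exceeded them by 7.13 (SE 0.61, adjusted p = 1.46e-06) and MGE interneuron-like cells by 6.95 (SE 0.58, adjusted p = 6.08e-07). Within each library alone these differences were between 5.76 and 6.22 on log2 CPM with the prior count. Their size depended on the excitatory level, which rose from a mean of 0.391 CPM to 1.77 CPM with called doublets kept, 1.61 CPM with genes scaled within each library and 1.18 CPM with classes drawn from one part of the UMIs. In these settings the differences fell to as low as 5.05 for Cajal-Retzius-like and 4.88 for MGE interneuron-like cells, and were called. Cajal-Retzius-like and MGE interneuron-like cells differed by 0.18 (SE 0.47, adjusted p = 0.857), with a 95% interval of -0.74 to 1.10.

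At 5000 UMIs per cell, Cxcr4 was detected in 4 of 13 (30.8%) and 6 of 21 (28.6%) Cajal-Retzius-like cells and in 14 of 53 (26.4%) and 14 of 74 (18.9%) MGE interneuron-like cells. In excitatory neuron-like cells, taken as background, it was detected in 0 of 481 cells and in 1 of 719 (0.139%). Without thinning the shares in MGE interneuron-like cells were 68.5% and 32.1%. Median depth in that class was 23450.5 UMIs in replicate 2 and 10880 in replicate 4, and in excitatory neuron-like cells 34719.5 and 24706.

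The other GABAergic classes gave few counts. CGE interneuron-like cells had 62.5 CPM in replicate 2, from 5 UMIs of which 4 lay in 1 cell, and 10.1 CPM in replicate 4, from 3 UMIs. MGE interneuron-like cells differed from them by 1.38 (SE 0.76, adjusted p = 0.478; 95% interval -0.11 to 2.87). The difference became 3.23 (adjusted p = 0.00132) when sub-clusters were named without the rule on leading genes, an alternative chosen after seeing the data. Striatal projection neuron-like cells of replicate 4 had 11.6 CPM, and cells without sub-class 0 and 4.47 CPM.

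Among progenitors, RGC-like cells had 4.03 and 3.69 CPM of Cxcr4 and IPC-like cells 5.01 and 5.24 CPM, a difference of 0.46 (SE 0.49, adjusted p = 0.537; 95% interval -0.50 to 1.43). MGE interneuron-like cells exceeded IPC-like cells by 3.49 (SE 0.48, adjusted p = 3.43e-05). IPC-like cells exceeded excitatory neuron-like cells by 3.46 (SE 0.61, adjusted p = 3.26e-04). Most of the Cxcr4 UMIs of IPC-like cells lay in 1 cluster, as the plot of levels by cluster shows. The IPC-like cluster led by Eomes, Slc17a6 and Mfap4, with Rmst, Neurod1 and Synpr, had 21.6 and 15.8 CPM and held 53 of the 73 Cxcr4 UMIs of the class, while the other 3 IPC-like clusters were at or below 3.89 CPM.

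The Cajal-Retzius list summed to 296 and 569 CPM in that cluster, with 6 of 9 markers detected in each library, against 44.0 to 119.6 CPM in the other IPC-like clusters and 8819 and 12973 CPM in the Cajal-Retzius-like cluster. The call of the class against excitatory neuron-like cells was lost under other settings, and the cause was not tested: with called doublets kept, IPC-like and excitatory neuron-like cells differed by -0.20 (adjusted p = 0.854), and with genes scaled within each library by 0.069 (adjusted p = 0.963).

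Hem or choroid plexus-like cells, of the medial edge of the cortex, had 10.3 and 12.5 CPM of Cxcr4. That level was lower under other settings, with a mean of 1.52 CPM at Leiden resolution 2, of 1.59 CPM with at most 5% mitochondrial UMIs and of 0.828 CPM when classes were drawn from one part of the UMIs and levels from the other part. The Cldn5-led cluster had 3.40 CPM (1 UMI) and 38.4 CPM (15 UMIs, 8 of them in 1 cell). It exceeded RGC-like cells by 2.64 (SE 0.74, edgeR adjusted p = 0.0102), but within replicate 2 alone the difference was -0.18 and within replicate 4 alone 3.30. The call was lost with other cell filters and with classes drawn from one part of the UMIs.

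Meningeal fibroblast-like cells, which held the most ligand, had 2 and 0 Cxcr4 UMIs, where a count of 3 would be 3.77 and 3.57 CPM. Against the Cldn5-led cluster they were lower (edgeR adjusted p = 0.0161), with a ratio of summed counts of 19.1 in favour of that cluster and a counting interval of 4.50 to 171.4. The call was lost with at least 500 detected genes, with classes drawn from one part of the UMIs and with limma-voom. In replicate 2 alone the ratio was 1.35, from 1 UMI against 2, with an interval of 0.023 to 26.0; in replicate 4 alone meningeal fibroblast-like cells, with 0 UMIs, were at least 10.8-fold lower against their floor of 3 counts. Their differences from RGC-like cells (adjusted p = 0.319) and from IPC-like cells (adjusted p = 0.176) were not called, and at 2 UMIs a difference was hardly detectable.

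Ackr3, the atypical receptor, was highest in MGE interneuron-like cells. Its level there was 299 CPM in replicate 2 (373 UMIs; interval 269.9 to 331.5) and 295 CPM in replicate 4 (324 UMIs; interval 263.5 to 328.6), 297 ± 3.40, and neither value overlapped that of any other class. The 135 cells held 46.4% of all Ackr3 UMIs. Single cells ranged from 0 to 26 UMIs in replicate 2, with a median of 6, and from 0 to 30 in replicate 4, with a median of 3.

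The class divided into 3 sub-clusters, all expressing Lhx6, which specifies MGE interneurons. The sub-cluster led by Nxph1, Nxph2 and Dpp10 with Ptprt had 367 ± 13.3 CPM. One led by the same genes with Sh3rf3, and with Ackr3 itself among its leading genes, had 366 ± 57.97 CPM. Cntnap3 and Maf were among the leading genes of both. The sub-cluster led by Sst, which encodes the neuropeptide somatostatin, had 180 ± 50.1 CPM, its highest library (215 CPM) below the lowest of the other two (325 CPM). With as few as 10 cells per library these differences were not tested. Dividing GABAergic cells without sub-class, led by Top2a, Ccnd2 and Mki67, had 46.1 ± 10.8 CPM.

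At 5000 UMIs per cell, Ackr3 was detected in 36 of 53 (67.9%; exact binomial interval 53.7 to 80.1) and 52 of 74 (70.3%; interval 58.5 to 80.3) MGE interneuron-like cells. The share in RGC-like cells was 1 of 239 (0.418%) and 3 of 371 (0.809%), and in the Cldn5-led cluster 0 of 9 and 0 of 12, too few to bound a share below 25%. Without thinning, the shares in MGE interneuron-like cells were 98.1% and 84.0%, at the unequal median depths given above.

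MGE interneuron-like cells exceeded excitatory neuron-like cells by 4.42 (SE 0.35, adjusted p = 6.18e-07) and IPC-like cells by 6.80 (SE 0.42, adjusted p = 4.54e-08). Cajal-Retzius-like cells were lower than them, with a difference of -3.71 (SE 0.43, adjusted p = 3.35e-05). CGE interneuron-like cells had 0 and 2 UMIs, and were lower than MGE interneuron-like cells (adjusted p = 0.00114), with a ratio of summed counts of 56.2 and a counting interval of 15.5 to 465.2. In replicate 2 alone, against 0 UMIs in 5 cells, MGE interneuron-like cells were at least 7.99-fold higher against a floor of 3 counts, and in replicate 4 alone the ratio was 43.96 (interval 12.1 to 364). The level in CGE interneuron-like cells depended on how the class was drawn: from a mean of 3.35 CPM it became 26.1 CPM with called doublets kept, 27.2 CPM at Leiden resolution 2 and 28.2 CPM with sub-clusters named without the rule on leading genes. The log2 difference went from 5.91 to 4.14, 4.38 and 3.68 in these settings, and was called in each; over all alternatives the adjusted p was at most 0.0138. Within each library alone the difference from excitatory neuron-like cells was 4.53 and 4.24.

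**Figure D3:**
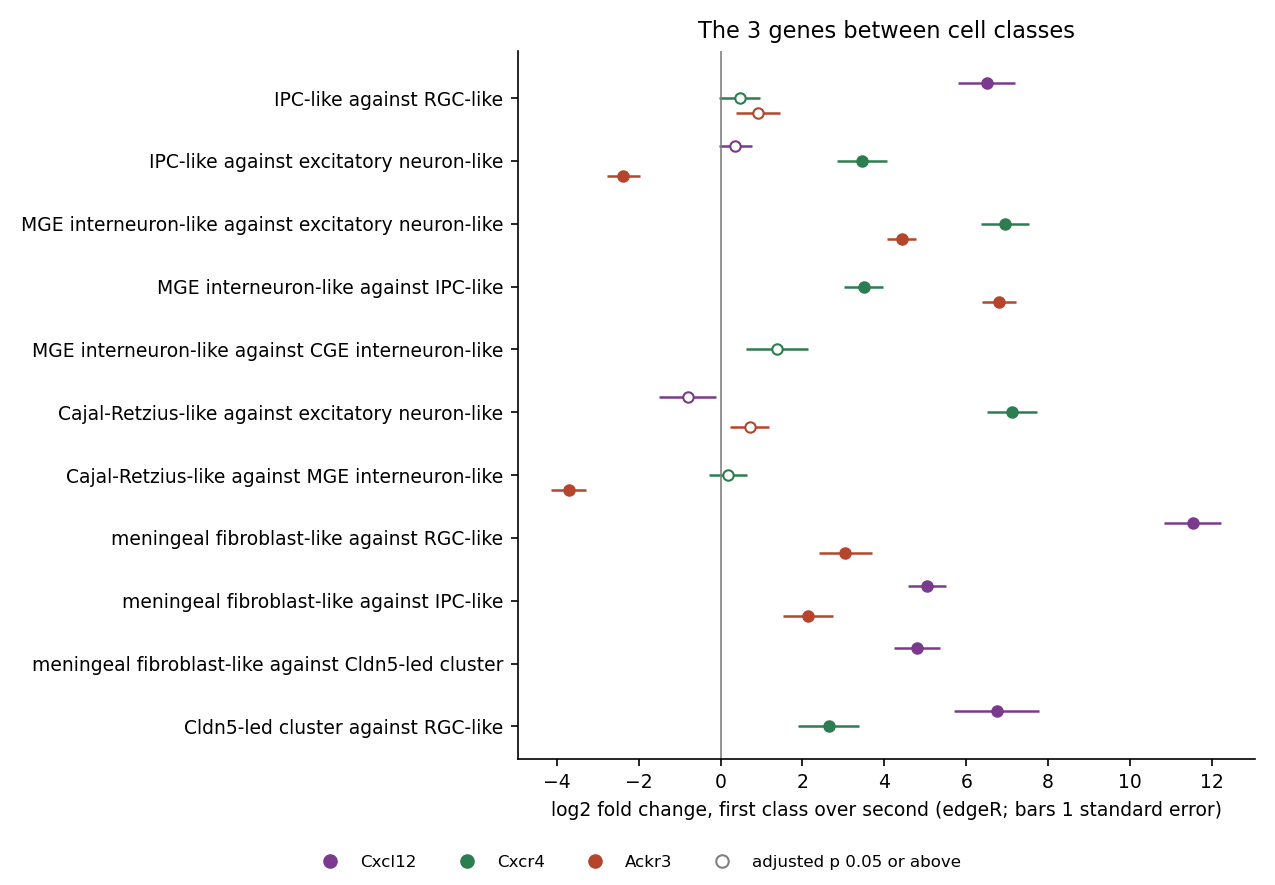
Differences of the 3 genes between pairs of cell classes (log2 fold change, class named before "against" minus the class after it) with 1 standard error on each side; filled points are called (edgeR adjusted p under 0.05) and pairs in which either class had 3 or fewer UMIs are left out. Cxcl12 reaches 11.53 for meningeal fibroblast-like against RGC-like cells, and Cxcr4 and Ackr3 lie at 6.95 and 4.42 for MGE interneuron-like cells against excitatory neuron-like ones.

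Ackr3 was also present in the excitatory lineage. Excitatory neuron-like cells had 11.9 CPM (207 UMIs) and 14.2 CPM (271 UMIs), 31.8% of all Ackr3 UMIs, and IPC-like cells had 1.45 CPM (9 UMIs) and 3.99 CPM (32 UMIs). The difference of IPC-like from excitatory neuron-like cells was -2.38 (SE 0.40, adjusted p = 3.03e-04). Their difference from RGC-like cells, at 1.51 and 1.55 CPM, was 0.92 (SE 0.53, edgeR adjusted p = 0.229, 95% interval -0.12 to 1.959). It turned to -1.56 with called doublets kept and to -0.47 with genes scaled within each library, and was called in neither.

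Among clusters named excitatory neuron-like, Ackr3 was highest in the one led by Lrfn5, Cdh13 and Rspo3 (20.5 and 26.9 CPM), in which Bcl11b and Fezf2, transcription factors of deep-layer neurons, were raised. The cluster led by Lrfn5, Rgs6 and Kirrel3 had 18.3 and 12.3 CPM. In the Sema3c-led cluster, where Cxcl12 was highest in the lineage, Ackr3 was at 3.79 and 3.82 CPM. No Ackr3 UMI was found in the 37 and 75 cells of the Kif26b-led IPC-like cluster, which was second in Cxcl12.

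Cajal-Retzius-like cells had 12.5 CPM of Ackr3 (5 UMIs) and 34.0 CPM (24 UMIs, 9 of them in 1 cell). Their difference from excitatory neuron-like cells was 0.72 (SE 0.48, adjusted p = 0.394; 95% interval -0.22 to 1.65). Hem or choroid plexus-like cells had 21.1 and 23.0 CPM, and GABAergic cells without sub-class 39.1 and 26.8 CPM. The range of Cajal-Retzius-like cells overlapped each of these. The order of the last 2 depended on the cell filters: with at least 500 genes hem or choroid plexus-like cells had a mean of 36.2 CPM and GABAergic cells without sub-class 14.99 CPM, and with at most 5% mitochondrial UMIs 33.8 and 14.6 CPM. The 65 and 63 cells of the unnamed clusters had 21.1 and 34.8 CPM, and nearly all of these Ackr3 UMIs lay in the cluster led by Cntn2, Chrna7 and Dscam, which was raised in 8 of 13 excitatory neuron markers and had 22.9 and 36.9 CPM. Unnamed cells were drawn otherwise under other settings, with a mean of 0 CPM with called doublets kept and of 13.5 CPM at Leiden resolution 2.

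Meningeal fibroblast-like cells had 21.4 CPM of Ackr3 in replicate 2 (17 UMIs) and 4.76 CPM in replicate 4 (4 UMIs). They exceeded RGC-like cells by 3.04 (SE 0.65, adjusted p = 0.00174) and IPC-like cells by 2.13 (SE 0.61, adjusted p = 0.0119). Replicate 2 carried both: within replicate 4 alone the differences were 1.35 and 0.21, and within replicate 2 alone 3.41 and 3.40. The call against IPC-like cells was lost with classes drawn from one part of the UMIs and with only the 2 classes in the fit. The UMIs lay mainly in the sub-cluster with Igf2, at 43.8 and 9.55 CPM. The Cldn5-led cluster had 0 Ackr3 UMIs in 27 cells, so meningeal fibroblast-like cells were at least 2.93-fold higher against a floor of 3 counts over that cluster, a comparison that was not called (adjusted p = 0.0587). The bound holds for the libraries summed: in replicate 4 alone the meningeal level of 4.76 CPM lay below the cluster's floor of 7.67 CPM.

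The receptors were then followed in the same cells. In MGE interneuron-like cells of replicate 2, 37 of 54 cells had a UMI of both receptors, 16 of Ackr3 alone, 0 of Cxcr4 alone and 1 of neither. In replicate 4, where cells were shallower, 23 of 81 had both, 45 Ackr3 alone, 3 Cxcr4 alone and 10 neither. Thus 100% and 88.5% of the cells with Cxcr4 also had Ackr3, and 69.8% and 33.8% of those with Ackr3 also had Cxcr4. These lie near the shares over all cells of the class, 98.1% and 84.0% for Ackr3 and 68.5% and 32.1% for Cxcr4. At 5000 UMIs per cell both receptors were detected in 13.2% and 16.2% of the cells. At that depth 7 of 14 (50%) and 12 of 14 (85.7%) cells with Cxcr4 also had Ackr3, and 19.4% and 23.1% of those with Ackr3 also had Cxcr4.

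Of 16 and 24 Cajal-Retzius-like cells, 2 and 4 had both receptors, 8 and 10 Cxcr4 alone, and 1 and 4 Ackr3 alone. Thus 20% and 28.6% of the cells with Cxcr4 also had Ackr3, and 66.7% and 50% of those with Ackr3 also had Cxcr4. Over all cells of the class the shares were 18.75% and 33.3% for Ackr3 and 62.5% and 58.3% for Cxcr4. No test compared these shares with those of MGE interneuron-like cells. At 5000 UMIs per cell, where 0 of 13 and 3 of 21 cells had an Ackr3 UMI, none had both. In hem or choroid plexus-like cells, which had UMIs of each receptor, 1 of 48 and 1 of 51 had both. Excitatory neuron-like cells with Ackr3 lacked Cxcr4 in all but 1 of 98 and all of 139 cells.

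**Figure D4:**
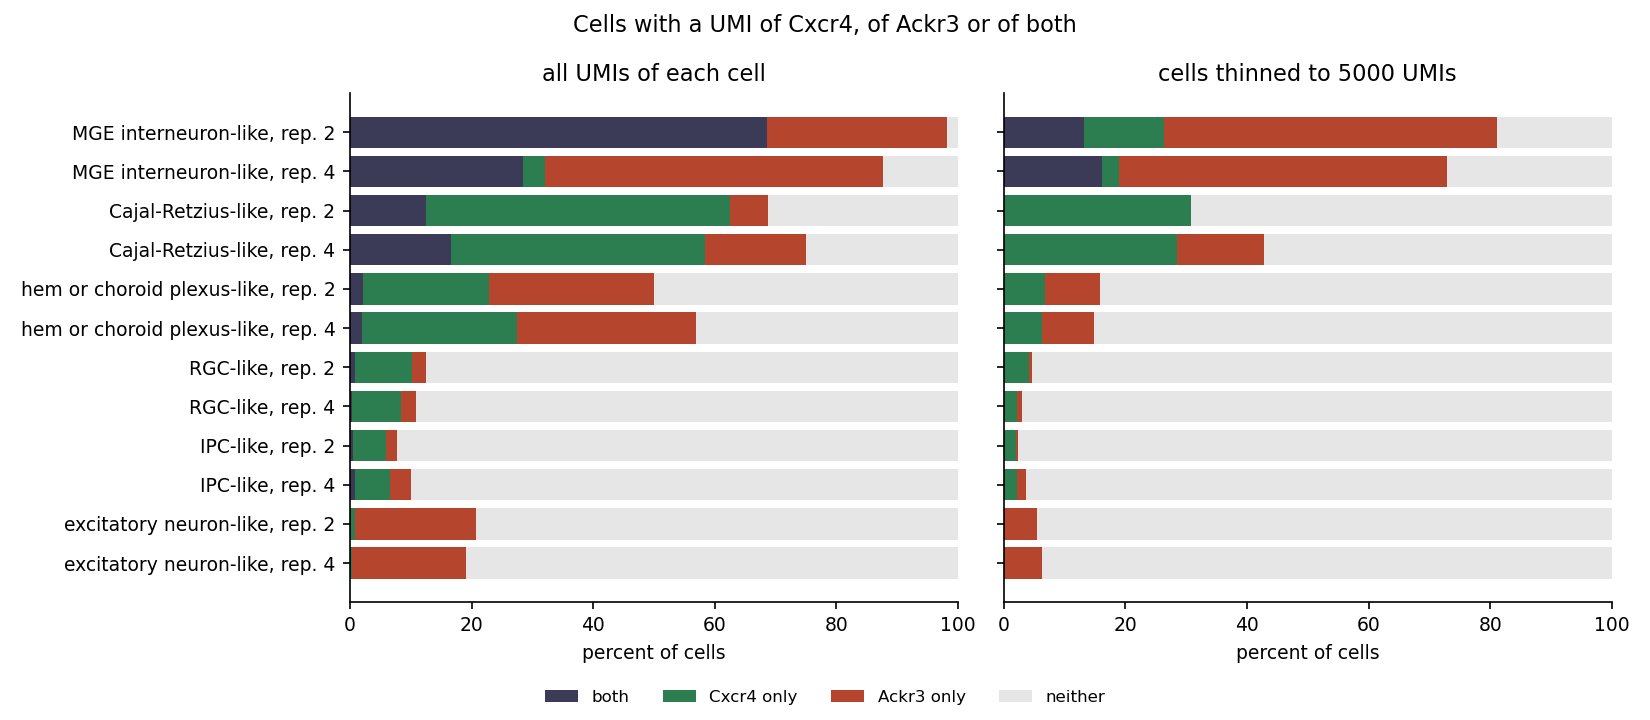
Share of cells (percent, stacked to 100) with a UMI of both receptors, of Cxcr4 alone, of Ackr3 alone or of neither, in 6 classes and each library, with all UMIs on the left and at 5000 UMIs per cell on the right. MGE interneuron-like cells have the largest share with both, 68.5% and 28.4% with all UMIs and 13.2% and 16.2% at equal depth.

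With all UMIs, meningeal fibroblast-like cells had the ligand and Ackr3 together in 4 of 19 and 2 of 33 cells, and the ligand and Cxcr4 in 2 and 0. In hem or choroid plexus-like cells 4 of 48 and 1 of 51 had Cxcl12 and Ackr3. In IPC-like cells 5 of 220 and 7 of 348 had Cxcl12 and Cxcr4, and 0 and 2 had Cxcl12 and Ackr3. Among MGE interneuron-like cells, 0 and 1 had UMIs of both Cxcl12 and Ackr3. In excitatory neuron-like cells, 14 of the 107 cells with Cxcl12 in replicate 2 and 19 of the 181 in replicate 4 also had Ackr3. In Cajal-Retzius-like cells, 2 and 4 cells had both Cxcl12 and Cxcr4.

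Across the 10 classes of the fit, the genes whose levels were most like those of each gene were ranked by the smaller of the 2 per-library Pearson correlations of log2(CPM + 10). These describe 10 points per library that share cells, depth and clustering. For Cxcl12 they were Olfml3 (r at least 0.95 in both libraries), Mill2, Chst14, Tmem45a and Hic1 (down to 0.94). Olfml3, which encodes a secreted matrix protein, stood at 43.2 ± 9.55 CPM in meningeal fibroblast-like cells, with 9.80 ± 4.23 CPM in the Cldn5-led cluster as the next class.

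For Ackr3 the most like genes were Nxph1 (0.90), Elfn1 (0.89), Nrsn1 (0.89), Pitpnm3 (0.88) and Dlgap1 (0.87). Nxph1, a secreted ligand of neurexins, had 7241 ± 365 CPM in MGE interneuron-like cells and 11.7 ± 16.6 CPM in those like CGE interneurons. For Cxcr4 the values were lower: Ero1lb (0.77), Mtus2 (0.76), Mtss2 (0.76), Retreg1 (0.76) and Rcan2 (0.73). Ero1lb, an oxidase of the endoplasmic reticulum, stood at 19.2 ± 1.08 CPM in Cajal-Retzius-like, 19.025 ± 3.75 CPM in MGE interneuron-like and 5.56 ± 0.53 CPM in excitatory neuron-like cells. The 5 genes ranked first by Spearman's rho shared 0, 2 and 1 with these for Cxcl12, Cxcr4 and Ackr3. Over the 10 classes the receptors had Pearson's r of 0.29 and 0.46 with each other but Spearman's rho of -0.055 and 0.41, so the sign turned in replicate 2. Cxcl12 had r of -0.31 and -0.26 with Cxcr4 (rho -0.18 and -0.14) and of -0.026 and -0.36 with Ackr3 (rho -0.086 and -0.40).

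The other genes of the pathway were taken from 5 lists of 80 genes in all, of which 53 were tested: 5 of 19 other chemokine ligands, 4 of 16 other chemokine receptors, all 16 genes for G proteins, receptor kinases, arrestins and RGS proteins, all 19 for downstream kinases and motility effectors, and 9 of 10 for extracellular handling of the ligand. From excitatory neuron-like to MGE interneuron-like cells 6 of the 53 rose and 6 fell, where 5.82% of all genes were higher and 9.87% lower. The shares of all genes by direction, here and below, are from the fit with every cell. Without the cells richer in mural or microglial markers 5 were higher and 8 lower. Of the G protein list 4 rose and 1 fell (3 and 2 without those cells), with a median log2 difference of 0.15 against -0.10 over all genes tested. Those that rose included Rgs10 (2.86, adjusted p = 0.00279) and Rgs3 (2.31, adjusted p = 3.27e-05), which encode regulators that end G protein signals, and Gng2 (1.02, adjusted p = 0.0327), a G protein gamma subunit. Rgs16 fell from 14.0 ± 1.45 to 1.204 ± 1.70 CPM (adjusted p = 0.0142).

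Of the motility effectors, Elmo1, which with DOCK proteins activates the GTPase RAC1, rose in MGE interneuron-like cells from 74.6 ± 2.87 to 589 ± 28.4 CPM (2.90, SE 0.58, adjusted p = 0.00230), and 3 genes fell, among them Mapk3, which encodes the kinase ERK1 (-0.93, adjusted p = 0.00410). In the list for extracellular handling, Gpc4, a heparan sulfate proteoglycan, fell from 100.3 ± 8.05 to 1.71 ± 0.151 CPM (-5.93, adjusted p = 7.60e-08). Mmp2, a metalloprotease that can cleave CXCL12, rose from 0.304 ± 0.0588 to 7.71 ± 0.678 CPM (4.46, adjusted p = 4.79e-05).

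In Cajal-Retzius-like against excitatory neuron-like cells 3 of the 53 rose and 6 fell, beside 6.74% and 6.52% of all genes. Rgs4 (2.94, adjusted p = 0.00450), another RGS protein, and Dock1 (2.57, adjusted p = 8.84e-05), a RAC1 activator, rose, as did the glypican gene Gpc1 (1.26, adjusted p = 0.0167). Gpc4 (-3.73, adjusted p = 3.40e-06) and Ptk2, which encodes focal adhesion kinase (-1.29, adjusted p = 2.75e-04), fell, as they did in MGE interneuron-like cells. Against MGE interneuron-like cells, Cajal-Retzius-like cells were lower in Elmo1 (-4.12, adjusted p = 6.97e-04) and higher in Dock1 (1.85, adjusted p = 0.00417), with 7 higher and 6 lower of the 53 (10.6% and 7.78% of all genes). MGE and CGE interneuron-like cells differed in 3, where 1.78% of all genes were called: Mif (1.88, adjusted p = 0.00315) and Rac1 (1.07, adjusted p = 0.0295) were higher in MGE interneuron-like cells, and the chemokine Cxcl14 had no UMI there and 48.5 ± 2.16 CPM in CGE interneuron-like cells (adjusted p = 0.0250).

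In meningeal fibroblast-like against RGC-like cells 15 of the 53 rose and 14 fell, beside 20.6% and 18.97% of all genes. The extracellular list had 5 higher and 2 lower of 9, with a median of 1.71 against -0.05 over all genes tested. Mmp2 rose to 80.98 ± 14.996 CPM from a single UMI in RGC-like cells (adjusted p = 1.21e-08). The peptidase gene Dpp4 (5.74, adjusted p = 2.41e-04), whose product truncates CXCL12, at 16.2 ± 15.8 CPM, and the syndecan gene Sdc1 (1.87, adjusted p = 3.25e-04) rose, and Gpc4 fell (-3.17, adjusted p = 1.38e-07). Of other chemokines, Cxcl16 rose to 17.02 ± 4.52 CPM (5.56, adjusted p = 1.61e-04) and Mif, a cytokine that also binds CXCR4, fell (-1.70, adjusted p = 1.82e-05). Against IPC-like cells 13 rose and 13 fell (20.5% and 19.4% of all genes), and against the Cldn5-led cluster 9 rose and 15 fell (10.6% and 9.77%). Without the cells richer in mural or microglial markers the count against IPC-like cells was 17 higher and 11 lower.

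IPC-like against RGC-like cells had 14 of the 53 higher and 10 lower, beside 14.3% and 13.3% of all genes. Without the cells richer in mural or microglial markers the counts were 9 higher and 13 lower, and no share of all genes by direction was computed there. The G protein list went from 5 higher and 3 lower to 3 and 4, and the extracellular list from 2 and 4 to 1 and 6. Rgs10 rose from 1.93 to 12.4 CPM (2.71, adjusted p = 0.00114), but without those cells its difference was -0.91 (adjusted p = 0.342). The syndecan gene Sdc3 rose from 3.58 to 38.9 CPM (3.49, adjusted p = 2.73e-05; 3.53 without those cells), while Mif (-1.22, adjusted p = 4.96e-04) and the inhibitory G protein subunit gene Gnai2 (-1.34, adjusted p = 6.31e-04) fell. The fractalkine receptor Cx3cr1, known from microglia, rose (2.57, adjusted p = 0.00230), and without the cells richer in mural or microglial markers the difference of Cx3cr1 was -0.22 (adjusted p = 0.849). Against excitatory neuron-like cells the calls in IPC-like cells were lost in the same way, from 3.09 to 0.27 (adjusted p = 0.813) for Cx3cr1 and from 2.67 to -0.97 (adjusted p = 0.287) for Rgs10. Against excitatory neuron-like cells IPC-like cells were higher in 10 and lower in 10 (16.1% and 16.1% of all genes), and without those cells in 8 and 12. MGE interneuron-like against IPC-like cells gave 8 higher and 12 lower (16.3% and 20.4%), and without those cells 9 and 9. The Cldn5-led cluster against RGC-like cells gave 22 higher and 12 lower (17.2% and 18.7%).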

How the data were processed

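Single cells were measured in 2 libraries of 1 group, so cell classes were compared over the libraries. The authors deposited, per library, a filtered matrix of UMI counts per gene and barcode, not normalised, made with Cell Ranger 7.0.0 on mm10 per the labels; whether intronic reads were counted is not given in the sources used here. The gene lists, marker lists and comparisons were chosen with earlier results of these data known.

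Barcodes with at least 1000 genes and at most 10% mitochondrial UMIs were retained, and Scrublet doublet calls (9 and 39 cells, 0.743% and 1.98%) removed. Cells were clustered in scanpy 1.11.5 (2000 variable genes without the 3 genes and their pathway, 30 components, 20 neighbours, Leiden resolution 1). A cluster was named from the list with most markers among its 10 leading genes, needing 3 raised markers, with the erythroid list set aside. Ties went to the list with the larger share of its markers raised, also where no list marker was among the leading genes. A cluster in which the erythroid list led (the Cldn5-led cluster) is called by its first gene. This scoring was set after a first clustering had been seen. GABAergic and non-neural cells were clustered again. UMIs were summed per class and library and tested in edgeR 4.0.16 (R 4.3.3; TMM, filterByExpr, quasi-likelihood), for classes that had 5 or more cells in both libraries; a standard error is the fold change over the root of F. The comparison of MGE interneurons with striatal projection neurons was not run, since replicate 2 held 1 striatal cell. Bounds for 0 counts use 3 counts, and ratios of summed counts carry exact 95% intervals. The classes and library totals set the precision, and the intervals of counts and count ratios cover counting error only. The 95% interval of a log2 difference was taken from its standard error with the normal multiplier, and is too narrow for so few sums. In simulated counts, 200 genes were changed in 1 class, all other genes had the same mean in every class, and the dispersion was fixed. Real classes differ in many genes, so the rates that follow need not hold for the real counts. The fit for MGE interneurons against excitatory neurons recovered 80% of changes of 3 and 59% of changes of 1.5 (log2), with 11610 genes tested. For changes of 1.5 it recovered 27% in MGE against CGE interneurons (11588 genes tested) and 32% in the Cldn5-led cluster against RGCs (11585). The rate was 19% in meningeal fibroblasts against that cluster (11538).

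Named pathway genes are up to 4 per list and comparison, called and largest in size. Alternatives changed the cell filters, doublets, resolution, scaling within libraries, count splitting, tool (DESeq2 1.42.0, limma 3.58.1), size factors, low-count filter, classes in the fit, minimum cells and the library block, and left out each library; 3 more were chosen after seeing the data. Classes with the same number come from the same library and are paired by it; their deviations from the class means correlated with a median r of 0.0528 over 45 class pairs (range -0.0143 to 0.326), and 11 pairs were over 0.1.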

Additional observations from a re-analysis of the deposited data

Results flagged for a closer look

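Some UMIs of the 3 genes lay outside the comparisons, in the 510 and 657 barcodes that were left out by the filters on genes, mitochondrial UMIs and doublets. Replicate 2 held 29 Cxcl12, 15 Cxcr4 and 38 Ackr3 UMIs there, and replicate 4 held 88, 21 and 81. Relative to all UMIs of the same barcodes this was 11.7 and 24.7 CPM of Cxcl12, 6.07 and 5.89 CPM of Cxcr4 and 15.4 and 22.7 CPM of Ackr3, each above the limit of 3 counts. Free RNA, broken cells and doublets in these barcodes were not tested apart.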

How the results depend on the processing

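Over 17 tested alternatives, 16 of the 20 called differences of the 3 genes had the same sign and stayed called in every one that could be run. The other 4, and the differences not called, changed as follows (log2 difference, edgeR adjusted p unless another tool is named; the causes were not tested). Cxcr4 in IPC-like against excitatory neuron-like cells became -0.20 (0.854) with called doublets kept and 0.069 (0.963) with genes scaled within libraries; these settings also gave -1.14 and -0.98 for Cxcr4, and -1.56 and -0.47 for Ackr3, in IPC-like against RGC-like cells. Ackr3 in meningeal fibroblast-like against IPC-like cells was no longer called with split UMIs (2.28, 0.0573) or with only the 2 classes in the fit (2.19, 0.0972). Cxcr4 in the Cldn5-led cluster against RGC-like cells was not called with at least 500 genes (1.81), at most 5% mitochondrial UMIs (1.76) or split UMIs (2.70), and in meningeal fibroblast-like against the Cldn5-led cluster with at least 500 genes (-1.39), split UMIs (-2.76) or limma-voom (-3.60).

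Among differences not called, Cxcl12 in IPC-like against excitatory neuron-like cells was -0.38 with at most 5% mitochondrial UMIs, -0.18 with scaled genes, -0.27 with split UMIs and 1.18 (0.0456) with clusters named by share of raised markers alone, which also gave 0.050 for Cxcl12 in Cajal-Retzius-like against excitatory neuron-like cells. Cxcl12 in Cajal-Retzius-like against MGE interneuron-like cells was called with at most 5% mitochondrial UMIs (4.48), Leiden resolution 2 (4.58), DESeq2 (4.70), no filter on low counts (4.70), at least 10 cells per class and library (4.63) and the library as a replicate block (4.52, adjusted p = 0.0347); the block changed no other call of the 3 genes. Cxcr4 was 0.42 in meningeal fibroblast-like against RGC-like cells with at least 500 genes, -2.36 (0.0308) against IPC-like cells with at most 5% mitochondrial UMIs, and 3.23 (0.00132) in MGE against CGE interneuron-like cells with sub-clusters named without the rule on leading genes. Ackr3 in meningeal fibroblast-like against the Cldn5-led cluster was called at resolution 0.5 (8.62), with DESeq2 (4.50) and with no filter (8.81), fitted values against 0 UMIs that are no bound, and in the Cldn5-led cluster against RGC-like cells with at least 500 genes (2.48, 0.00945).

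Within 1 library at a time (log2 CPM with a prior count of 2), the values below are set by the prior count where a class had 0 UMIs. They are then neither a measured size nor a bound. This holds for Cxcl12 in MGE interneuron-like cells of replicate 2. There the floor of 3 counts allows at least 5.50-fold against excitatory neuron-like and 9.25-fold against IPC-like cells. No fold is given against Cajal-Retzius-like cells, whose own 3 UMIs do not exceed that count. It also holds for Ackr3 in CGE interneuron-like cells of replicate 2 and for Ackr3 in the Cldn5-led cluster. Against that cluster meningeal fibroblast-like cells were at least 2.09-fold higher in replicate 2, and no fold can be given in replicate 4 or for RGC-like cells. Cxcl12 ranged from 9.45 to 10.76 in meningeal fibroblast-like against RGC-like, 4.92 to 5.08 against IPC-like and 4.24 to 7.51 against the Cldn5-led cluster; from 1.94 to 6.52 in the Cldn5-led cluster and 4.52 to 5.68 in IPC-like against RGC-like cells; from -4.88 to -4.19 and from -5.46 to -4.40 in MGE interneuron-like cells against excitatory neuron-like and IPC-like ones; and from -1.04 to -0.81 and 3.39 to 3.84 in Cajal-Retzius-like against excitatory neuron-like and MGE interneuron-like cells. Cxcr4 ranged from 6.03 to 6.22 in Cajal-Retzius-like and 5.76 to 6.03 in MGE interneuron-like cells against excitatory neuron-like cells, 2.96 to 3.69 in MGE interneuron-like against IPC-like cells, 2.34 to 2.79 in IPC-like against excitatory neuron-like cells, 0.35 to 0.47 in IPC-like and -0.18 to 3.30 in the Cldn5-led cluster against RGC-like cells. Ackr3 ranged from 5.40 to 9.27 in MGE against CGE interneuron-like cells, -0.20 to 1.001 in Cajal-Retzius-like against excitatory neuron-like cells, 0.019 to 1.14 in IPC-like, 1.35 to 3.41 in meningeal fibroblast-like and -1.96 to -1.91 in the Cldn5-led cluster against RGC-like cells, and 3.31 to 5.33 in meningeal fibroblast-like against the Cldn5-led cluster.

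Counts of all genes called moved with limma-voom and with only 2 classes in the fit from 3684 to 6126 and 5934 (IPC-like against RGC-like), from 4299 to 6932 and 7081 (IPC-like against excitatory neuron-like) and from 2096 to 3616 and 3204 (MGE interneurons against excitatory neurons), and with limma-voom from 1772 to 2705 (Cajal-Retzius-like against excitatory neuron-like). The 238 genes of MGE against CGE interneuron-like cells became 118 with at least 500 genes, 128 with split UMIs, 419 with DESeq2, 51 with limma-voom, 620 with no filter, 1562 with the other sub-cluster naming and 392 without cells richer in mural or microglial markers. DESeq2's size factors moved the median of all genes by over 0.1 in 5 comparisons, from -0.126 (MGE against CGE interneuron-like) to 0.209 (meningeal fibroblast-like against IPC-like), and the share of higher calls from 64.7% to 50.5%, from 50.8% to 61.3% and from 51.3% to 64.1% in MGE against CGE interneuron-like, Cajal-Retzius-like against excitatory neuron-like and meningeal fibroblast-like against IPC-like cells.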
